A study of Caenorhabditis elegans with 2 samples.

Results

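The nlp genes of Caenorhabditis elegans encode neuropeptide-like proteins, and 32 of the 19874 genes in the deposited expression table are described here. They are all genes whose name in the table is nlp- and a number, without nlp-24 to nlp-34, a range that includes the known epidermal antimicrobial peptide genes. RNA was sequenced from 2 replicate samples of 1 double mutant strain. Both samples carry daf-2(e1370), a mutation in the receptor of insulin-like signals, together with daf-12(m20), a mutation in a steroid-activated nuclear receptor of the dauer decision. The worms were grown at 20 °C on plates with the bacterium E. coli OP50 as mixed-stage cultures, and RNA was taken from whole animals. Whether separate cultures were used is not stated, and the spread between the samples may therefore be technical. Neither wild type nor single mutants were analysed here. The values are thus levels in this strain, with no effect of either mutation to be read from them and no test between groups.

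An nlp gene encodes a precursor that is cut at basic residues into short peptides, trimmed by a carboxypeptidase and often amidated at its end. The peptides travel in dense-core vesicles and act on G protein-coupled receptors of other cells, so a peptide made in a few neurons can set the state of a whole circuit. In the worm they are known from egg laying, locomotion, sleep-like quiescence, olfactory learning and the defecation cycle. The nlp family is defined by exclusion, as the neuropeptide precursors that are neither insulin-like nor FMRFamide-like, and its members are not all related in sequence.

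Expression is given as the authors' RPKM, reads scaled to gene length and to the reads of the library, which puts genes on a common scale. How well this scaling holds for very short genes, as many nlp genes are, was not tested. From the spacing of low values the depth was estimated as 10500000 reads for replicate 1 and 14700000 reads for replicate 2. For 29 members with an annotated coding length, RPKM could be turned back into reads, and in 28 of them both values came out whole, within 0.1 read plus 0.01% of the reads. Intervals below are exact Poisson 95% intervals on those reads, and they cover counting error only. All 10 neuronal marker genes reached 1 RPKM in both replicates, and their median was 15.7 RPKM. The synaptobrevin gene snb-1 was highest at 164 ± 14.2 RPKM (SD, n = 2), followed by ric-4 at 75.9 ± 0.98 RPKM and unc-64 at 38.3 ± 2.62 RPKM, and tbb-4 was lowest at 2.01 ± 0.13 RPKM. Neurons were thus measured beside other tissues, whose marker lists had medians of 144 RPKM for intestine, 184 RPKM for body wall muscle, 36.5 RPKM for epidermis, 49.5 RPKM for germ line and 3.97 RPKM for pharynx. The part that each tissue has in an nlp value was not tested, and fewer cells of a type and less RNA per cell cannot be told apart in whole animals.

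Most of the 32 members reached 1 RPKM, but their levels were very different. Of the 32 members, 30 reached 1 RPKM in both replicates, where 69.8% of all 19874 genes did. The table holds no gene at 0 RPKM in both replicates, so genes without reads may be missing from these shares. At 10 RPKM or more in both there were 22 members (68.8% of them, against 40.9% of all genes), and at 100 RPKM or more there were 4 (12.5%, against 7.41%). The median member was at 16.7 RPKM in replicate 1 and at 18.2 RPKM in replicate 2, beside 6.21 and 6.13 RPKM over all genes. This does not extend to the whole nlp family. A further 30 genes now named nlp, listed by sequence name, had medians of 6.63 and 6.21 RPKM, close to those of all genes. On the log2(RPKM + 1) scale the member median was 4.18 ± 0.07 (SD, n = 2) and that of all genes 2.84 ± 0.01. The mean reached from 421 RPKM in nlp-40 down to 0.445 RPKM in nlp-23, and the lower value rests on 1 read in replicate 1 and 4 reads in replicate 2.

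**Figure D1:**
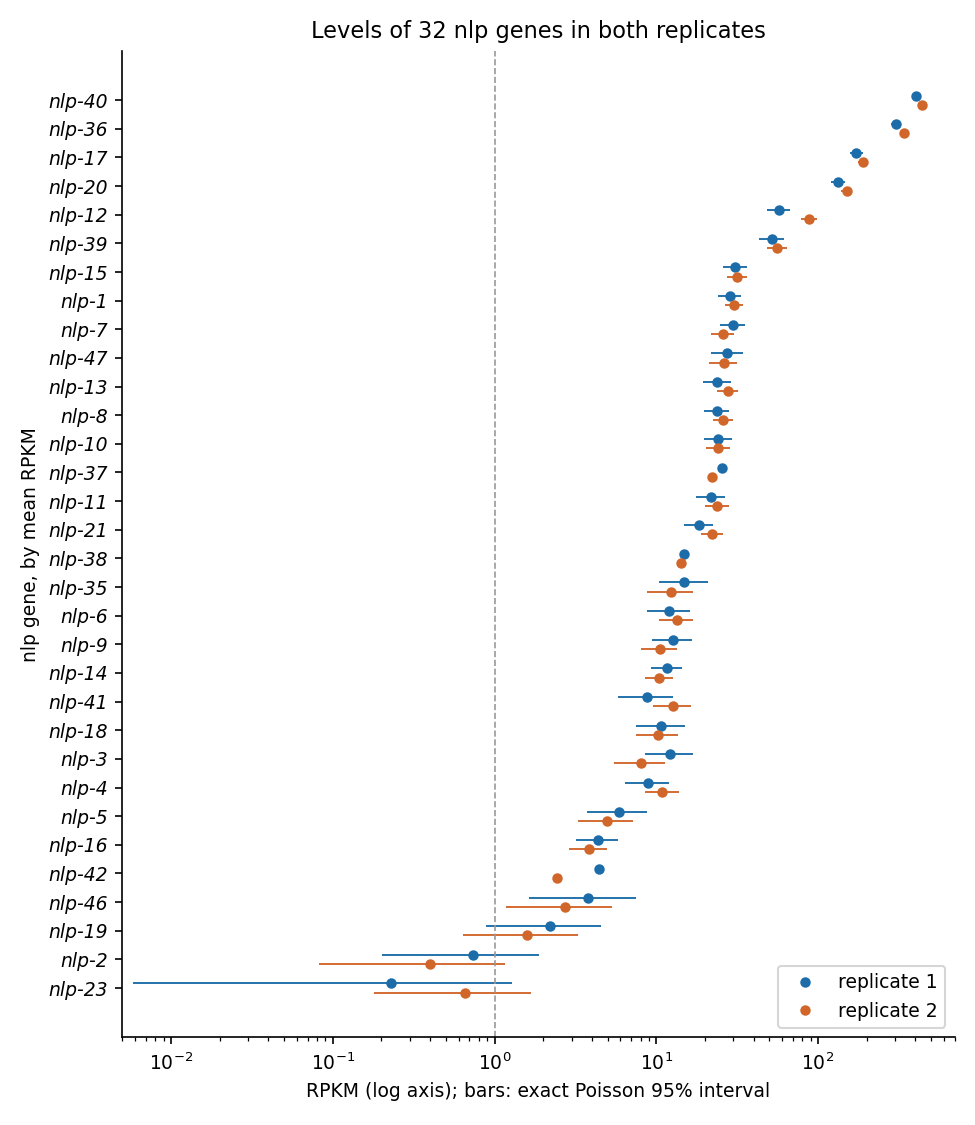
RPKM of the 32 nlp genes in replicate 1 (blue) and replicate 2 (orange) on a log axis, ordered by mean, with exact Poisson 95% intervals for the 29 genes with a coding length and a dashed line at 1 RPKM. The 4 highest genes lie above 100 RPKM in both replicates, and nlp-2 and nlp-23 lie below 1 RPKM in both.

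Among the motor peptides was the most abundant member. nlp-40 encodes a peptide that the intestine releases to time the expulsion step of defecation through the receptor AEX-2 on the DVB neuron, so its best-known source is not a neuron. It was at 403 RPKM in replicate 1 and at 439 RPKM in replicate 2 (mean 421 ± 25.5, SD, n = 2), from 1581 and 2394 reads. The intervals, 384 to 424 RPKM and 422 to 457 RPKM, just overlapped. In the WBcel235 annotation the gene lies on chromosome I from 11495 to 16837. Alone it held 26.8% of the summed RPKM of all members in both replicates. The remaining 31 members had a median of 14.6 RPKM.

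nlp-12, a cholecystokinin-like peptide gene, is known for expression in the stretch-sensitive interneuron DVA, from where it raises acetylcholine release at the neuromuscular junction. It was at 57.0 RPKM in replicate 1 and at 87.9 RPKM in replicate 2 (mean 72.5 ± 21.9, SD, n = 2), from 146 and 313 reads, next in rank after nlp-20. The value of replicate 2 was 1.54 times that of replicate 1, and the intervals of 48.1 to 67.0 RPKM and 78.4 to 98.2 RPKM did not overlap. The gene lies on chromosome I from 1843384 to 1843959. nlp-37, which encodes a peptide of the pigment dispersing factor type, a family known to promote roaming locomotion, was at 25.7 RPKM in replicate 1 and at 22.3 RPKM in replicate 2 (mean 23.95 ± 2.40, SD, n = 2). Its name was not matched in the annotation, so its reads could not be estimated.

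The egg-laying genes nlp-3 and nlp-7 were at moderate levels. nlp-3 encodes peptides that the HSN neurons release along with serotonin to stimulate egg laying, and it was at 12.2 RPKM in replicate 1 and at 8.0 RPKM in replicate 2 (mean 10.1 ± 2.94, SD, n = 2). These values rest on 35 and 32 reads, and their intervals of 8.47 to 16.9 RPKM and 5.47 to 11.3 RPKM overlapped. nlp-7, which is known to inhibit egg laying, was at 29.9 RPKM in replicate 1 and at 25.8 RPKM in replicate 2 (mean 27.8 ± 2.89, SD, n = 2). Both nlp-7 values lay above both nlp-3 values. nlp-47, a gene for a peptide related to gonadotropin-releasing and adipokinetic hormones that is also linked to egg laying, was at 27.4 RPKM in replicate 1 and at 26.0 RPKM in replicate 2 (mean 26.7 ± 0.97, SD, n = 2).

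The genes of sleep-like quiescence and arousal lay far apart. nlp-8 and nlp-14 encode peptides related to the orcokinins of crustaceans and are linked to stress-induced sleep through the ALA neuron. nlp-8 was at 23.6 RPKM in replicate 1 and at 25.9 RPKM in replicate 2 (mean 24.7 ± 1.65, SD, n = 2), and nlp-14 was at 11.7 and 10.4 RPKM (mean 11.045 ± 0.88, SD, n = 2). Both values of nlp-8 were above those of nlp-14. nlp-2, whose amidated peptides are known to promote wakefulness, was close to the limit of detection, with 0.74 RPKM (4 reads) in replicate 1 and 0.40 RPKM (3 reads) in replicate 2. A floor of 3 reads in this gene is 0.55 RPKM in replicate 1. nlp-22, its quiescence-promoting relative, has no value among the genes of the table, and whether it had no reads cannot be told. nlp-23, the remaining gene of that group, was at 0.23 RPKM (1 read) and 0.66 RPKM (4 reads), with intervals of 0.0058 to 1.28 RPKM and 0.18 to 1.69 RPKM. nlp-2 and nlp-23 were the lowest members, and their replicate ranges overlapped, so their order was not resolved.

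nlp-1, nlp-9 and nlp-38 were listed together as genes of sensory plasticity and learning. nlp-1 is known to act from the AWC olfactory neurons on AIA interneurons, and it was at 28.4 RPKM in replicate 1 and at 30.3 RPKM in replicate 2 (mean 29.4 ± 1.36, SD, n = 2). nlp-38, a gene for myoinhibitory-type peptides, was at 14.9 and 14.3 RPKM (mean 14.6 ± 0.43, SD, n = 2). nlp-9 was at 12.7 and 10.5 RPKM (mean 11.6 ± 1.52, SD, n = 2). nlp-1 was thus above the others in both replicates. The values of nlp-38 and nlp-9 also did not overlap, and differed by less. nlp-38 was not matched in the annotation, so it has no interval. The nlp-9 interval in replicate 1, 9.45 to 16.6 RPKM, includes the nlp-38 value, and that in replicate 2, 8.01 to 13.5 RPKM, does not. Counting error thus does not separate them in both replicates.

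Among the remaining high genes, nlp-36, nlp-17 and nlp-20 followed nlp-40 in that order in both replicates. nlp-36 was at 303 RPKM in replicate 1 and at 338 RPKM in replicate 2 (mean 321 ± 24.5, SD, n = 2), from 796 and 1233 reads, and lies on chromosome III from 9488731 to 9489186. nlp-17 was at 172 and 190.4 RPKM (mean 181 ± 12.98, SD, n = 2), and lies on chromosome IV from 13505270 to 13505762. Of its 252 coding bases, 30 overlap an exon of seld-1 on the opposite strand, a gene at 14.5 RPKM, and reads from such bases cannot be assigned where strand is not recorded. nlp-20 was at 133 and 150.2 RPKM (mean 141 ± 12.3, SD, n = 2), and lies on chromosome IV from 7642054 to 7643071. nlp-39 was at 51.8 and 55.7 RPKM (mean 53.8 ± 2.79, SD, n = 2). nlp-15, which like nlp-8 and nlp-14 encodes orcokinin-related peptides, was at 30.8 and 31.8 RPKM (mean 31.3 ± 0.71, SD, n = 2). For each of these genes the range of the replicates was apart from those of its neighbours in the order.

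The 4 members above 100 RPKM together held 67.3% of the summed member RPKM in replicate 1 and 68.1% in replicate 2, and the 10 highest held 82.3% and 83.8%. Of 31 neighbouring pairs in the order of means, 12 had replicate ranges that were apart, and 7 of these were the steps from nlp-40 down to nlp-1. Counting error resolved fewer steps. Of the 25 pairs in which both genes had intervals, 5 had intervals apart in both replicates, namely the 4 steps from nlp-40 down to nlp-12 and that from nlp-39 to nlp-15. From nlp-1 to nlp-21 a run of 9 genes overlapped in their ranges from neighbour to neighbour, with means of 29.4 down to 20.2 RPKM. Besides genes described above, it held nlp-13 at 25.8 ± 2.74 RPKM (SD, n = 2), nlp-10 at 24.2 ± 0.05 RPKM, nlp-11 at 22.8 ± 1.39 RPKM and nlp-21 at 20.2 ± 2.65 RPKM. A further run of 9 genes reached from nlp-38 to nlp-4, with means of 14.6 down to 9.90 RPKM, and held nlp-35, nlp-6, nlp-41 and nlp-18 between 10.5 and 13.6 RPKM. The reads of nlp-41 did not come out whole, so they are less certain than those of the other members.

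Below these lay a small group. nlp-5 was at 5.87 RPKM in replicate 1 and at 4.95 RPKM in replicate 2, and nlp-16, the member with the longest coding sequence, at 4.35 and 3.83 RPKM. nlp-42 was at 4.42 and 2.45 RPKM (mean 3.44 ± 1.39, SD, n = 2). nlp-46 was at 3.78 and 2.72 RPKM from 8 reads in each replicate, and nlp-19 at 2.21 and 1.59 RPKM from 7 reads in each. The ranges of nlp-46 and nlp-19 were apart, but with so few reads their intervals overlapped in both replicates.

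The replicates are the only repeat measurement of the design, and they show how far each nlp value differed between the 2 samples. As that spread may be technical, it does not show how well the values hold across cultures. None of the 30 members with a mean of at least 1 RPKM differed more than 2-fold between replicates on the log2(RPKM + 1) scale, where 0.713% of 14313 such genes did. At that share hardly any of 30 genes would be called, so this count tells little about the members. With a limit of 1.5-fold, 2 members were called, against 3.58% of all such genes: nlp-12, with a log2 difference of replicate 2 minus replicate 1 of 0.62, and nlp-42, with a difference of -0.65. The next in size were nlp-3 at -0.55 and nlp-41 at 0.48. Of these members 15 were higher in replicate 2 and 15 in replicate 1, and the median difference was 0.021, which turned to -0.0072 with equal RPKM sums, beside -0.024 over all such genes. The SD of the difference was 0.28 over the members and 0.25 over all such genes. Of the 27 members with a mean of at least 1 RPKM and a coding length, only nlp-12 had intervals that did not overlap, where 7.62% of 13629 such genes did. Among the 20 of them with at least 100 reads over both replicates, a limit chosen after seeing the data, it was likewise 1, against 9.33% of 10643 genes. In both counts the share of members with intervals apart was under that of all such genes. The difference of nlp-12 was not tested.

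**Figure D2:**
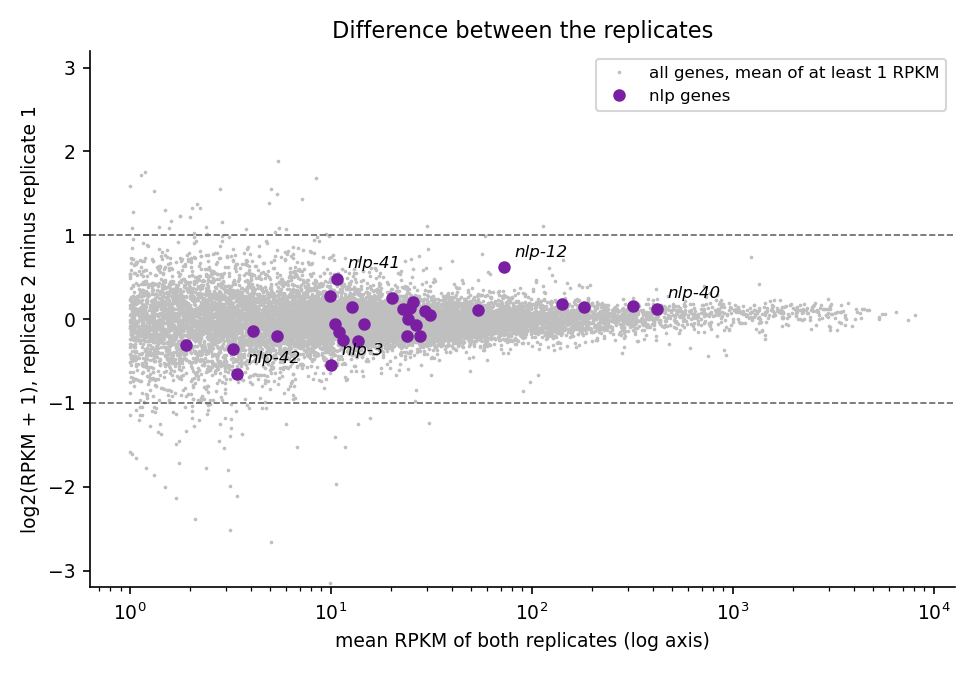
Difference of log2(RPKM + 1), replicate 2 minus replicate 1, against mean RPKM on a log axis for the 30 nlp genes with a mean of at least 1 RPKM (purple) and all such genes (grey), with dashed lines at 2-fold. No nlp gene lies beyond the dashed lines, and nlp-12 at 0.62 and nlp-42 at -0.65 lie farthest from 0.

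The members are short genes. Their median coding length was 372 bp, with a range of 201 to 981 bp, where 17994 genes with a length had a median of 1014 bp. Of the 29 members with a length, 27 (93.1%) were shorter than 600 bp, against 23.4% of all genes. The median member had 3 exons and the median gene 5, each counted in its transcript with the most exons. Because RPKM is given per length, a median member gave 83 reads in replicate 1 and 103 reads in replicate 2, close to the 84 and 118 reads of the median gene, although its RPKM was higher. The lowest of the short members, nlp-46, nlp-19, nlp-2 and nlp-23, rest on 1 to 8 reads per replicate.

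On the chromosomes, 8 of the 29 placed members (27.6%) lie on X, where 13.5% of 19367 placed genes lie. Of these, nlp-1 had the highest mean, 29.4 ± 1.36 RPKM (SD, n = 2), with nlp-7 above it in replicate 1, and the median was 11.9 RPKM in replicate 1 and at 9.21 RPKM in replicate 2. The 21 autosomal members had medians of 23.6 and 24.1 RPKM, and all 4 members above 100 RPKM are autosomal. Over all genes the medians of the mean RPKM were 5.15 on X and 6.58 on autosomes. Each X-linked member lay below 31 RPKM in both replicates, and the 3 lowest placed members, nlp-19, nlp-2 and nlp-23, are all X-linked. nlp-23 ends at 2342959 and nlp-2 starts at 2343947 on X, with 987 bases and no coding gene between them, on the same strand. nlp-9 and nlp-13 on chromosome V were the only other pair of members within 20 kb, with 14184 bases between them, and were at 11.6 ± 1.52 and 25.8 ± 2.74 RPKM.

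**Figure D3:**
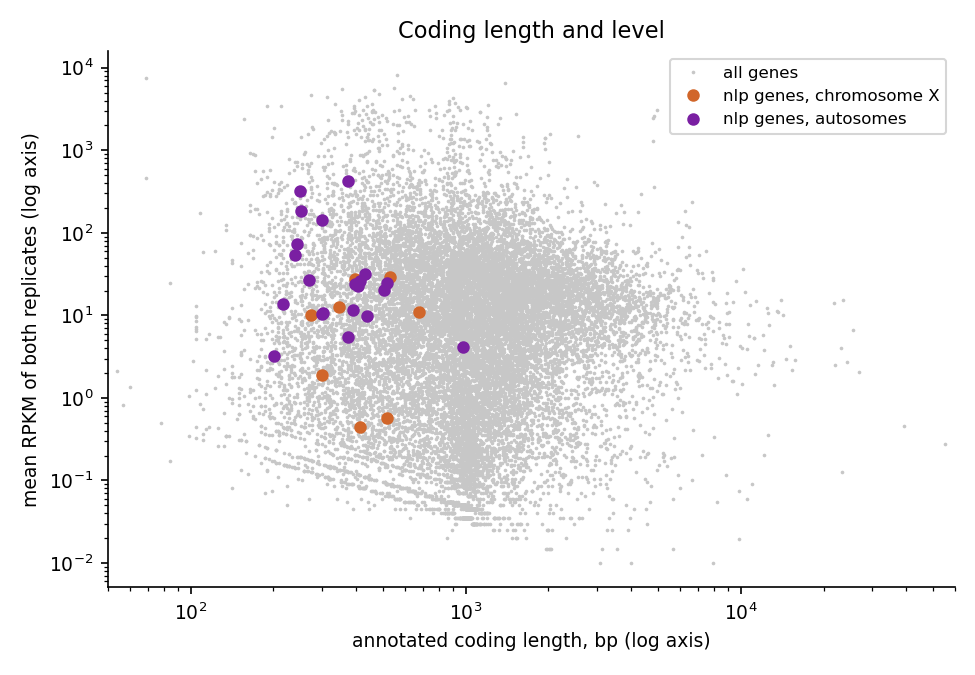
Mean RPKM against annotated coding length, both on log axes, for all genes with a length (grey), the 21 autosomal nlp genes (purple) and the 8 X-linked nlp genes (orange). All but 2 nlp genes are shorter than 600 bp, and the 4 above 100 RPKM are autosomal.

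The genes that mature the peptides were all expressed. All 9 of the list reached 10 RPKM in both replicates, and their median was 40.5 RPKM. sbt-1, a chaperone of the peptide-cutting convertase, was highest at 134 ± 2.98 RPKM (SD, n = 2). The carboxypeptidase gene egl-21 followed at 74.6 ± 4.43 RPKM and the amidating enzyme gene pgal-1 at 58.3 ± 1.10 RPKM. The convertase gene egl-3 was at 40.5 ± 1.15 RPKM, and kpc-1, another convertase gene, was lowest at 20.4 ± 1.03 RPKM. Most of these enzymes serve other peptides too, so their levels are not particular to nlp precursors.

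Genes of dense-core vesicles ranged more widely. All 13 reached 1 RPKM in both replicates, and 6 reached 10 RPKM, with a median of 10.03 RPKM. The small GTPase gene unc-108 was highest at 155.6 ± 6.65 RPKM (SD, n = 2), followed by ida-1 at 37.8 ± 0.71 RPKM and the protein kinase C gene pkc-1 at 28.6 ± 0.61 RPKM. unc-31, whose protein primes dense-core vesicles for release, was at 2.76 ± 0.25 RPKM, and tbc-8 was lowest at 1.93 ± 0.23 RPKM. How much of these whole-animal levels comes from neurons was not tested. The neprilysin genes nep-1 and nep-2, from a family of enzymes that degrade peptides, were at 14.9 ± 0.37 and 7.98 ± 2.30 RPKM.

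The receptor genes of the list were low. Of 13 receptor genes with a value, 6 reached 1 RPKM in both replicates (46.2%, against 69.8% of all genes). None reached 10 RPKM, against 40.9% of all genes, and the median was 0.86 RPKM. The pigment dispersing factor receptor gene pdfr-1 was highest at 6.58 ± 1.004 RPKM (SD, n = 2). nlp-37, a gene for a ligand of this receptor, was at 23.95 ± 2.40 RPKM. aex-2, the receptor gene for the nlp-40 peptide, was at 2.16 RPKM in replicate 1 and at 1.77 RPKM in replicate 2. ckr-2, through which the nlp-12 peptides act, was at 1.76 and 1.37 RPKM. sprr-2, a receptor gene for nlp-38 peptides, was at 2.03 and 1.26 RPKM, and gnrr-1, a receptor gene for the nlp-47 peptide, was at 0.93 and 0.78 RPKM. npr-11, a receptor gene for nlp-1 peptides, was lowest at 0.31 and 0.45 RPKM. In these 6 pairs, named after their values were seen, both ligand values lay above both receptor values. No receptor value of the list was above 7.29 RPKM, and no value of these ligands was under 14.29 RPKM. The order of the pairs thus restates these levels and is no further result. The opposite order was seen for nlp-2 beside gnrr-3 and gnrr-6, receptor genes of the group of nlp-2, nlp-22 and nlp-23. gnrr-3 was at 0.88 and 0.80 RPKM and gnrr-6 at 1.66 and 1.48 RPKM, above both values of nlp-2 and of nlp-23. nlp-2 rests on 4 and 3 reads, with intervals up to 1.88 and 1.16 RPKM. nlp-23 rests on 1 and 4 reads, with intervals up to 1.28 and 1.69 RPKM. Both gnrr-3 values and some of the gnrr-6 comparisons lie within these intervals, so this order is not resolved in both replicates.

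The FMRFamide-like flp genes, the other large neuropeptide family, were more even. Of 29 flp genes, 28 reached 1 RPKM in both replicates, 22 reached 10 RPKM and none reached 100 RPKM. Their median was 23.9 RPKM in replicate 1 and at 24.5 RPKM in replicate 2, above the medians of 16.7 and 18.2 RPKM of the 32 members. The further 30 genes now named nlp are not part of this comparison. The difference of the medians, nlp minus flp, was -0.47 ± 0.05 on the log2(RPKM + 1) scale (SD, n = 2), but -0.23 when genes with a mean under 1 RPKM were left out. The highest flp gene was flp-22, at 71.1 ± 9.26 RPKM, and 4 nlp genes lay above every flp value in both replicates. The summed RPKM was 1502 and 1641 for the 32 nlp genes and 787 and 836 for the 29 flp genes. Without nlp-40, best known from the intestine, the nlp sums were 1099 and 1201 RPKM. The nlp median on the log2(RPKM + 1) scale was then 3.96, beside 4.65 for the flp genes. For the 11 genes nlp-24 to nlp-34 the median was 121 RPKM, and 6 reached 100 RPKM in both replicates, with nlp-24 highest at 640.1 ± 40.6 RPKM.

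**Figure D4:**
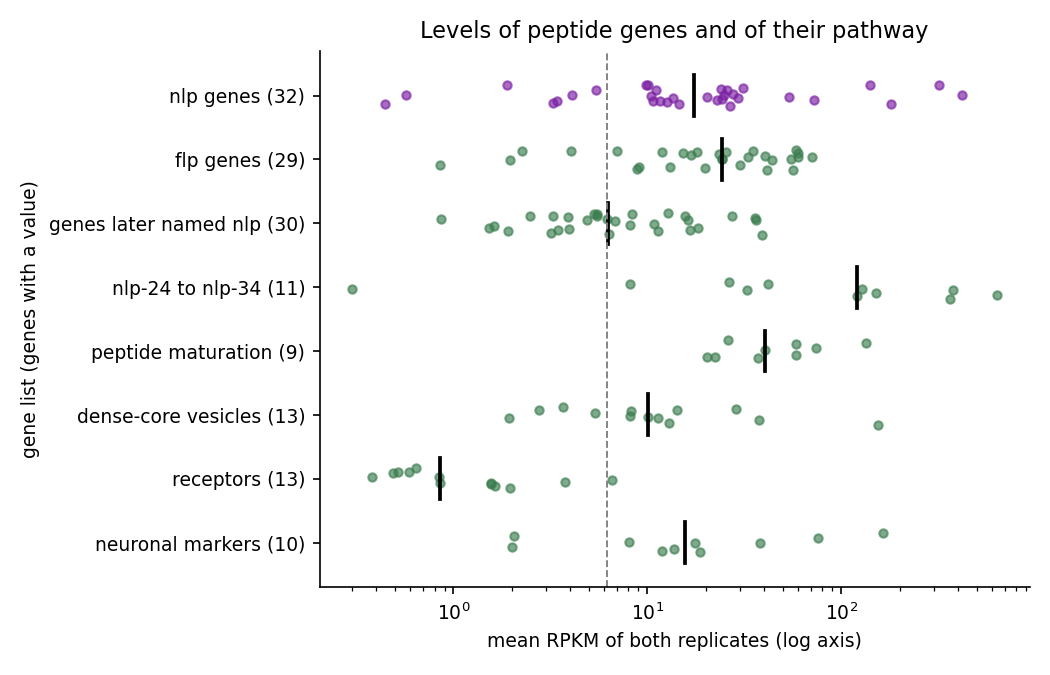
Mean RPKM of both replicates on a log axis for each gene of 8 lists, with a bar at each list's median and a dashed line at the median of all genes, and with the number of genes in brackets. The nlp genes reach both above and below the range of the flp genes, and the receptor genes lie below the dashed line except pdfr-1.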

How the data were processed

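RNA sequencing of 2 samples of 1 strain was analysed. The authors deposited 1 table of RPKM values, per the file headers. CASAVA 1.8.2 is named in the submitters' processing notes. For the aligner, counting, annotation and build the sources used here give no name. Of 19990 rows, 104 that name part of a gene and 12 that share a name were left out, which left 19874 genes. Commas used as digit separators were removed. Gene symbols, sequence names and RefSeq locus tags linked the table to the WBcel235 annotation (release 115). Of 32 members 29 matched. Coding length is the union of coding exons in that annotation, and positions are those of WBcel235.

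Depth was taken as the number of reads at which RPKM times coding length came closest to whole numbers for low values. Of values up to 20 reads, 86.2% of 4488 in replicate 1 and 86.5% of 3765 in replicate 2 came out within 0.1 read, where 20% is given by chance. The floor is 3 reads. Differences between replicates used log2(RPKM + 1), which understates those of low genes, and genes with a mean of at least 1 RPKM. With 1 group no test was run and no p-value calculated.

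The members and gene lists were chosen with earlier results of these data known. Members named in full are the 10 highest, the 5 lowest, those of the role groups and any beyond 2-fold between replicates. Of the pathway lists and the neuronal markers the highest and lowest genes are named. Other genes, such as egl-3, unc-31 and single receptors, were named after their values were seen. Alternatives were other pseudocounts, RPKM and fold limits, filters, rescaling and leaving out each replicate. Scripts were tested on simulated data. Software was scipy 1.17.1, numpy 2.4.6, matplotlib 3.10.9 and pandas 2.3.3 under Python 3.11.15.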

Additional observations from a re-analysis of the deposited data

How the results depend on the processing

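The number of members at 1 RPKM or more in both replicates was 30 in the main setting, without either replicate and under both rescalings, and 30, 29 and 25 with limits of 0.5, 2 and 5 RPKM. The median level of 4.18 was 4.11 with a pseudocount of 0.1 and 4.46 when members with a mean under 1 RPKM were left out, and ranged from 4.13 to 4.23 with a replicate left out. The difference of nlp and flp medians of -0.47 ranged from -0.50 to -0.44 with a replicate left out and was -0.23 with only genes at a mean of at least 1 RPKM. No member lay beyond 2-fold, but 2 lay beyond 1.5-fold, and 1, nlp-23, lay beyond 2-fold with no pseudocount and no filter, an alternative chosen after seeing the data. The median log2 difference between replicates of 0.021 was 0.098 with a mean of at least 5 RPKM, -0.0072 with equal RPKM sums, 0.045 with a median log2 ratio of 0 and 0.063 after quantile normalization, so its sign depends on the scaling. Of 96 member levels under 3 rescalings, 95 moved by less than 1 SD between replicates. The cause of these shifts was not tested. No paired analysis was possible because the samples form 1 group. Reads limit the precision of low and short members, such as nlp-5 with 23 and 27 reads, and n = 2 limits that of all.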

Other observations

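A further 30 genes that the table lists by sequence name carry an nlp symbol in the WBcel235 annotation. They lay lower than the 32 genes named nlp in the table, with medians of 6.63 RPKM in replicate 1 and 6.21 RPKM in replicate 2. These are close to the medians of all genes, 6.21 and 6.13 RPKM. Of these 30 genes, 29 reached 1 RPKM in both replicates (96.7%, against 69.8% of all genes). At 10 RPKM there were 11 (36.7%, against 40.9%), and none reached 100 RPKM, against 7.41%. The highest was nlp-55, at 42.6 RPKM in replicate 1 and at 35.6 RPKM in replicate 2. nlp-50 was at 38.8 and 33.98 RPKM, and nlp-43 at 34.3 and 37.8 RPKM. nlp-49, an arousal peptide gene whose receptor is SEB-3, was at 16.9 and 15.6 RPKM, beside 3.34 and 4.15 RPKM for seb-3. The lowest was nlp-63, at 0.45 and 1.28 RPKM. These genes were chosen after their values were seen, and no test compares them with the 32.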
